A study of Mus musculus with 12 samples.

Results

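ATP-binding cassette (ABC) genes encode proteins that bind and hydrolyse ATP, most of which move lipids, peptides, drugs, bile salts, metal cofactors or conjugated metabolites across membranes. The genes described here are the rows of the mouse gene annotation with a symbol of the form Abc, a subfamily letter from a to g and a number. By that rule there were 50 ABC genes among 28427 annotated rows, of which 35 had enough reads to be tested for differences between groups. Subfamily A had 16 members (11 tested), B had 10 (7 tested), C had 10 (7 tested), D had 4 (4 tested), E had 1 (1 tested), F had 3 (3 tested) and G had 6 (2 tested). The transporters Tap1, Tap2 and Cftr belong to the same superfamily under other symbols, so the rule did not take them in.

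All libraries were made from mammary epithelial cells of C57BL/6 mice kept in MEBM medium with supplements, prolactin at 1 µg/mL and progesterone at 1 µM, and no group lacked the hormones. There were 4 groups of 3 libraries: spheroids at 96 h, spheroids at 48 h, monolayers at 96 h and monolayers at 48 h. Spheroids grew inside Matrigel, a basement-membrane gel, and monolayers grew on collagen-coated dishes, so culture shape and matrix changed together and cannot be told apart. The series describes its replicates as biological without saying whether they came from separate mice or separate cultures, so p-values measure only the spread between these libraries.

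Transporters of the A and G subfamilies are best known for exporting cholesterol and phospholipids, a path that the oxysterol-sensing LXR receptors switch on. Subfamily B holds P-glycoprotein, which expels drugs, together with transporters of mitochondria and lysosomes. Subfamily C holds the multidrug resistance proteins, which export glutathione and glucuronide conjugates, and the regulatory subunits of ATP-sensitive potassium channels. Subfamily D serves peroxisomes and lysosomes, while E and F proteins have ATP-binding cassettes but no membrane segments and act on ribosomes. In the mammary gland, ABCG2 is known for concentrating riboflavin and many drugs into milk.

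Sequencing depth ran between 7674105 and 13554497 counts per library. Within groups, the counts of replicate libraries differed by a chi-square per degree of freedom of 2.34 to 6.78, apart from monolayers at 48 h, where replicate 3 differed from replicate 1 by 17.7 and from replicate 2 by 9.42. Levels of 1 gene are given in CPM, counts relative to the library's TMM-scaled size, and different genes are compared only in FPKM, which also divides by gene length. Differences are log2 fold changes with standard errors from edgeR's quasi-likelihood test over 13842 genes, and a gene was called when its Benjamini-Hochberg adjusted p was under 0.05. All 9 mammary epithelial markers were detected in every group, with summed levels of 6303 to 6597 CPM in spheroids at 96 h, 6052 to 6461 CPM in spheroids at 48 h, 4205 to 4507 CPM in monolayers at 96 h and 9875 to 11342 CPM in monolayers at 48 h. Some single markers differed more than the sums. At 96 h 7 of 9 were called higher in spheroids and 1 lower (77.8% and 11.1%, beside 37.5% and 36.7% of all genes). Krt14 had 907 CPM in spheroids and 73.5 CPM in monolayers at 96 h, Elf5 262 and 11.1 CPM, and Krt17 44.0 and 136 CPM. In monolayers 1 rose and 8 fell with time (88.9%, beside 31.3% of all genes). The part of this shift in the ABC values was not tested. Markers of fibroblasts, endothelium and adipocytes were also present, and their sums are given below beside some of the genes. The part of these cell types in the values of the other ABC genes was not tested either. The 8 immune markers summed to 31.9 to 35.1 CPM in spheroids at 96 h, 29.8 to 36.6 CPM in spheroids at 48 h, 43.9 to 49.95 CPM in monolayers at 96 h and 23.5 to 37.7 CPM in monolayers at 48 h, with Cd3e at 0 in monolayers at 96 h. In bulk samples, fewer cells of a type and less RNA per cell cannot be told apart.

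ABC genes spanned a wide range of levels. The ribosome recycling factor Abce1 had the highest mean over the 12 libraries, 63.7 FPKM, followed by Abcf1 with 47.3 FPKM, Abcf2 with 37.3 FPKM and the peroxisomal Abcd3 with 37.0 FPKM. The conjugate exporter Abcc1 had a mean level of 25.8 FPKM, Abcg2 14.8 FPKM and Abcf3, a ribosome-associated member, 13.8 FPKM. The lipid transporters Abca3 and Abca1 had mean levels of 11.6 and 10.2 FPKM. In all, 9 members reached a mean of 10 FPKM and 26 reached 1 FPKM. The next in order were Abcb8 with 9.88 FPKM and Abcc3 with 8.63 FPKM. Neighbours in this order, such as Abcf2 and Abcd3, overlapped between libraries. The order also changed by group. Abcd3 had 47.7 FPKM in spheroids at 96 h, where Abcf2 had 39.5 FPKM. Abca1 had 23.7 FPKM in monolayers at 96 h, where Abcg2 had 11.8 FPKM, and Abcc3 had 21.4 FPKM in spheroids at 48 h, where Abcg2 had 16.1 FPKM.

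**Figure D1:**
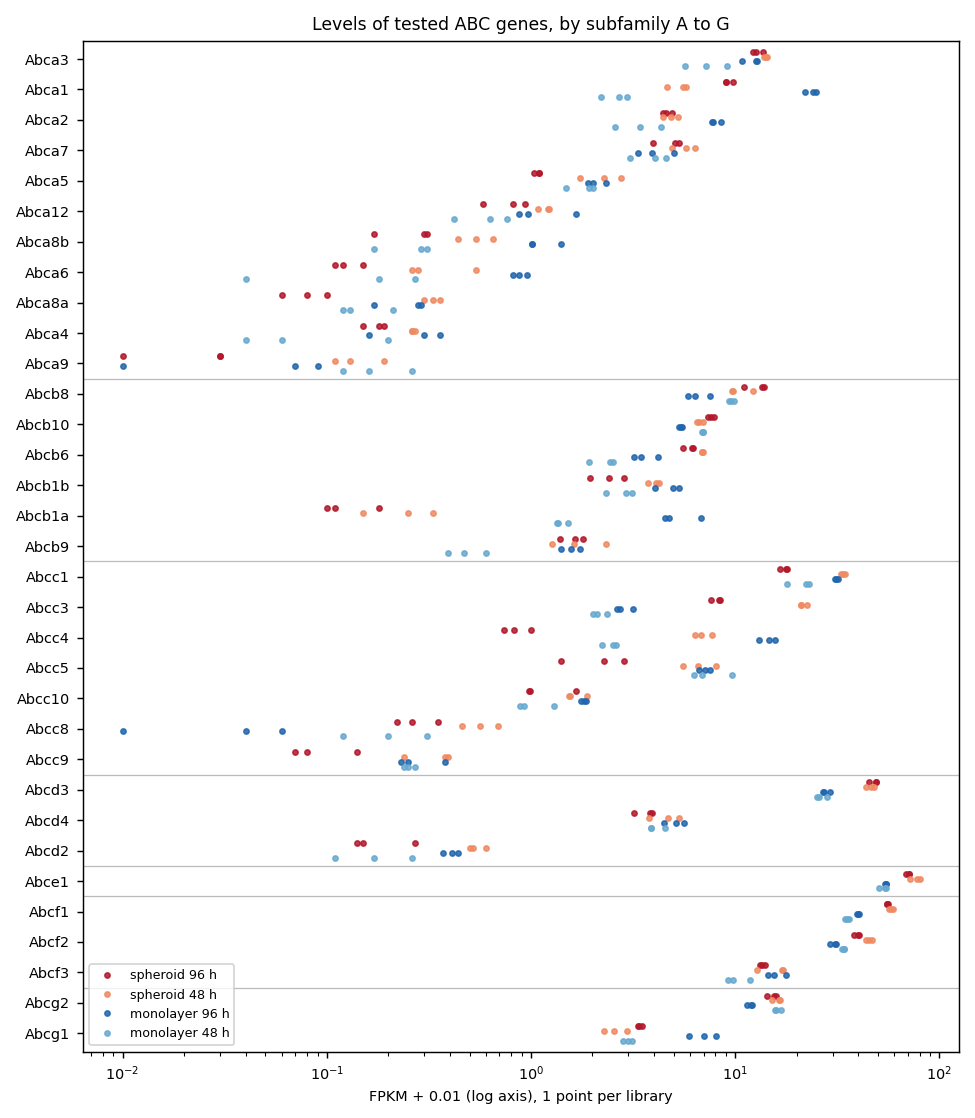
FPKM of tested ABC genes in each library (log axis, 0.01 added), with 1 point per library coloured by group and genes grouped by subfamily A to G. Abce1, Abcf1, Abcf2 and Abcd3 lie farthest to the right, with means between 37.0 and 63.7 FPKM, and Abcc4, Abcb1a and Abcc3 show wide gaps between groups.

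Summed over its members, subfamily A had 33.9 FPKM in spheroids at 96 h, 34.9 FPKM in spheroids at 48 h, 53.6 FPKM in monolayers at 96 h and 20.5 FPKM in monolayers at 48 h. The subfamily C sum was 30.1 FPKM in spheroids at 96 h, 71.3 FPKM in spheroids at 48 h, 57.8 FPKM in monolayers at 96 h and 34.6 FPKM in monolayers at 48 h. Both sums were therefore higher in spheroids at 48 h and higher in monolayers at 96 h. The D sum was 54.8 and 54.1 FPKM in spheroids at 96 h and 48 h, against 36.2 and 32.9 FPKM in monolayers at 96 h and 48 h. The F sum was 109 and 119 FPKM in spheroids at 96 h and 48 h, against 86.4 and 79.5 FPKM in monolayers at 96 h and 48 h. The B sum moved less, with 40.7 and 37.7 FPKM in spheroids and 33.3 and 29.1 FPKM in monolayers at 96 h and 48 h. The G sum was nearly level, at 18.6 and 18.8 FPKM in spheroids and 19.0 and 19.2 FPKM in monolayers at 96 h and 48 h. These FPKM values were not TMM-scaled. On log2(FPKM + 0.1) values the median difference of all genes, spheroid over monolayer, was 0.15 at 48 h and -0.08 at 96 h.

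The 15 members that were not tested had few or no reads. Abcg4, a sterol transporter of brain, had the most with 36 counts over all libraries. Abcb11, the bile salt export pump, and Abcc2, the canalicular conjugate exporter, were also among them, as were Abcg5, Abcg3, Abcb4, Abca13, Abcc12, Abca14 and Abca16. Another 5 members, Abca15, Abca17, Abcb5, Abcc6 and Abcg8, had 0 counts in every library, which allows a level of up to 0.0227 CPM from counting error alone.

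At 48 h most ABC genes were higher in spheroids than in monolayers. Of the 35 tested, 23 were called higher (65.7%) and 2 lower (5.71%), where 31.9% of all genes tested were called higher and 26.5% lower. The median log2 fold change was 0.53 for ABC genes and 0.05 for all genes. Abcc3, which exports bile salts and glucuronides, had the largest difference at 3.22 ± 0.083 on the log2 scale, and Abcg1 and Abcb1a were the 2 called lower. Without monolayer 48 h replicate 3, which stood apart, 21 were called higher and 1 lower.

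At 96 h the balance was the other way. There were 11 ABC genes called higher in spheroids (31.4%) and 17 called lower (48.6%), beside 37.5% and 36.7% of all genes. The median was -0.40 for ABC genes and -0.00 for all genes. Lower genes included Abcb1a, Abcc4, Abca6, Abca8b, Abcc5 and Abca1, and higher ones included Abcc3, Abcb8 and Abcd3.

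With time in monolayers, 18 ABC genes rose (51.4%) and 7 fell (20.0%) between 48 h and 96 h, beside 30.4% and 31.3% of all genes, with medians of 0.38 and 0.01. The median of ABC genes was 0.17 without monolayer 96 h replicate 1 and 0.22 without monolayer 48 h replicate 2. With time in spheroids, 5 rose (14.3%) and 17 fell (48.6%), beside 19.5% and 20.6% of all genes, with medians of -0.33 and 0.01. The difference between the spheroid effect at 96 h and that at 48 h was tested as an interaction. It was positive for 4 ABC genes (11.4%) and negative for 22 (62.9%), beside 27.0% and 26.6% of all genes, with medians of -0.99 and -0.02.

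Scaling by total counts instead of TMM shifted the median of all genes to 0.159 at 48 h, 0.183 with time in monolayers and -0.206 for the interaction. The split of ABC genes was then 25 higher and 1 lower in spheroids at 48 h, 20 risen and 6 fallen in monolayers, and 4 positive and 25 negative for the interaction. Over all genes, the share of calls that were higher moved to 65.2% under total counts at 48 h, beside 54.5% under TMM. That share was 66.2% beside 49.3% with time in monolayers, and 34.1% beside 50.4% for the interaction.

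A crossing pattern was frequent among ABC genes. Called higher in spheroids at 48 h and lower at 96 h were 10 of 35 (28.6%), beside 4.28% of all genes: Abca1, Abca2, Abca8a, Abca8b, Abca12, Abcb1b, Abcc1, Abcc4, Abcc10 and Abcd2. Another 8 (22.9%, beside 21.6% of all genes) were higher in spheroids at both times, among them Abcb6, Abcc3, Abcc8, Abcd3, Abce1, Abcf1 and Abcf2. Abcb1a and Abcg1 were lower at both times (5.71%, beside 17.8% of all genes), and 0 members were lower at 48 h and higher at 96 h, as 3.42% of all genes were. The 2 comparisons share no libraries.

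**Figure D2:**
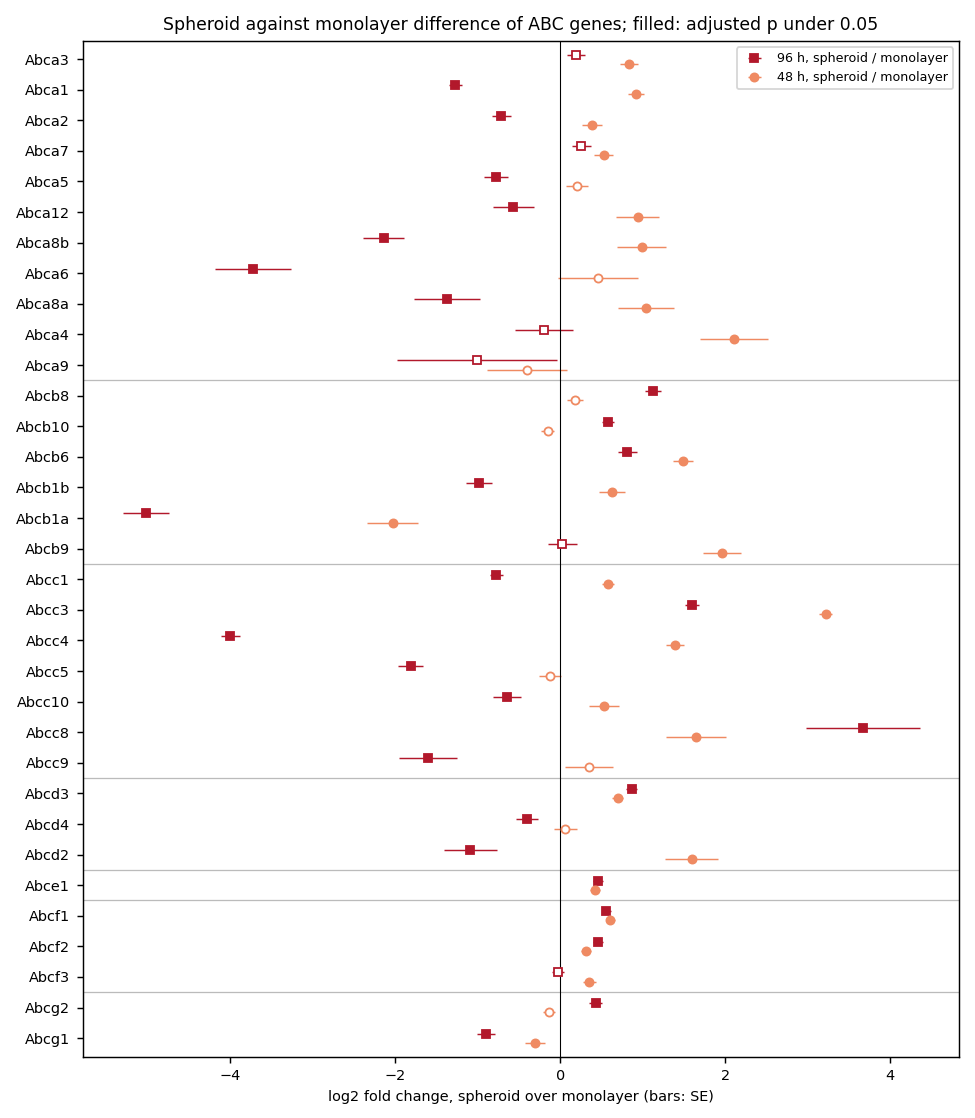
Log2 fold change of tested ABC genes, spheroid over monolayer, at 96 h (squares) and at 48 h (circles), with standard errors; filled symbols have an adjusted p under 0.05. Abcc4 stands at -4.00 at 96 h and 1.39 at 48 h, while the E and F genes lie close to 0 or on the positive side at both times.

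Of the 10 crossing genes, 5 belong to subfamily A, the lipid transporters. At 48 h, 8 of the 11 tested were called higher in spheroids and 0 lower (median log2 fold change 0.84), and at 96 h 0 were called higher and 7 lower (median -0.78). In monolayers 7 rose with time and 1 fell, and in spheroids 1 rose and 6 fell. The shares of all genes given for each comparison are the background for these counts and for those of the other subfamilies.

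Abca1, which loads cholesterol and phospholipid onto apolipoprotein A-I, had 102, 94.8 and 94.7 CPM in spheroids at 96 h and 59.2, 47.8 and 57.4 CPM in spheroids at 48 h. It had 234, 221 and 248 CPM in monolayers at 96 h and 32.3, 30.1 and 24.8 CPM in monolayers at 48 h. No group overlapped another, and monolayers at 96 h were highest. Among macrophage markers, Cd68 was also highest in monolayers at 96 h. Cd68 averaged 5.02 ± 1.2 CPM in spheroids at 96 h and 4.85 ± 1.1 CPM in spheroids at 48 h. In monolayers Cd68 averaged 24.9 ± 5.0 CPM at 96 h and 2.44 ± 0.45 CPM at 48 h (SD, n = 3). Lyz2 averaged 1.92 ± 0.34 CPM in spheroids at 96 h and 5.30 ± 1.2 CPM in spheroids at 48 h. In monolayers Lyz2 averaged 8.63 ± 1.9 CPM at 96 h and 5.33 ± 1.0 CPM at 48 h. Unlike Abca1, Lyz2 was level between formats at 48 h and lower in spheroids at 96 h than at 48 h. Of the other tested immune markers, Itgam was higher in spheroids at 96 h (log2 1.13) and Csf1r had a difference of -0.61 that did not pass. The part of macrophage RNA in the Abca1, Abcg1 and Npc1 values was not tested. Abca1 was 2.41-fold lower in spheroids at 96 h (log2 -1.27 ± 0.082, adjusted p = 4.02e-11) and 1.89-fold higher at 48 h (log2 0.92 ± 0.097, adjusted p = 1.09e-07). With time it rose 8.07-fold in monolayers and 1.77-fold in spheroids, and it and Abcg1 were the 2 members that rose in both (5.71%, beside 6.16% of all genes).

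Abca2, an endosomal lipid transporter best known in brain, had 39.9, 36.2 and 37.6 CPM in spheroids at 96 h and 35.9, 42.7 and 39.1 CPM in spheroids at 48 h. Monolayers had 59.7, 60.4 and 66.3 CPM of Abca2 at 96 h and 37.3, 29.8 and 23.0 CPM at 48 h. Monolayers at 96 h stood above every other library, while the 48 h groups overlapped. Abca2 was 1.64-fold lower in spheroids at 96 h (log2 -0.71 ± 0.11, adjusted p = 9.97e-06). At 48 h its difference was 0.39 ± 0.12 (adjusted p = 0.00981). That call ended without monolayer 48 h replicate 3 (log2 0.22, adjusted p = 0.0551) or without spheroid 48 h replicate 2 (log2 0.32, adjusted p = 0.0545).

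Abca3, which packs surfactant phospholipids in lung, had 80.1, 83.3 and 76.2 CPM in spheroids at 96 h and 84.8, 88.4 and 86.0 CPM in spheroids at 48 h. Its monolayer values were 72.0, 74.9 and 63.5 CPM at 96 h and 59.9, 47.6 and 38.1 CPM at 48 h. The gap between formats was wide at 48 h, with a log2 difference of 0.84 ± 0.11 (adjusted p = 1.76e-06). At 96 h the groups did not overlap but the difference of 0.19 ± 0.11 did not pass (adjusted p = 0.109). It was called, at about the same size, without monolayer 48 h replicate 1 (0.19, adjusted p = 0.0295) or 3 (0.18, adjusted p = 0.0308), with the 96 h groups alone (0.19, adjusted p = 0.0139) and without the filter (0.21, adjusted p = 0.0212).

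Abca5, a lysosomal membrane protein, had 8.10, 9.22 and 9.13 CPM in spheroids at 96 h and 21.7, 14.1 and 17.3 CPM in spheroids at 48 h. In monolayers it had 16.1, 14.6 and 14.6 CPM at 96 h and 15.7, 17.1 and 13.5 CPM at 48 h. Spheroids at 96 h were the low group, 1.72-fold below monolayers at 96 h (log2 -0.78 ± 0.14, adjusted p = 5.95e-05) and 2.02-fold below spheroids at 48 h.

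Abca8b, Abca8a, Abca9, Abca6 and Abca5 are consecutive coding genes on chromosome 11, in the gene order of RefSeq GRCm38. Abca8b and Abca6 were singled out after their values were seen. Abca8b had 1.76, 0.988 and 1.78 CPM in spheroids at 96 h, 2.55, 3.24 and 3.0 CPM in spheroids at 48 h, 8.07, 6.01 and 5.99 CPM in monolayers at 96 h and 1.67, 1.82 and 0.894 CPM in monolayers at 48 h. Abca6 had 0.306, 0.247 and 0.148 CPM in spheroids at 96 h, 0.851, 1.04 and 1.11 CPM in spheroids at 48 h, 3.20, 3.75 and 2.82 CPM in monolayers at 96 h and 1.47, 0.580 and 0.179 CPM in monolayers at 48 h. For both genes the 96 h monolayers stood above all other libraries. At 96 h Abca8b was 4.41-fold lower (log2 -2.14 ± 0.25, adjusted p = 1.81e-07) and Abca6 13.3-fold lower (log2 -3.73 ± 0.46, adjusted p = 5.28e-07) in spheroids. At 48 h Abca8b was higher in spheroids (log2 0.99 ± 0.29), and Abca6 had a log2 difference of 0.46 ± 0.49 (adjusted p = 0.435). That value changed with 1 library and with the scale. Without monolayer 48 h replicate 1 it was 1.34 and called (adjusted p = 0.0300). With all libraries on log2(FPKM + 0.1) values it was 0.90 and called (adjusted p = 0.0364). The monolayer libraries at 48 h had 15, 7 and 2 counts of Abca6.

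Neighbouring Abca8a was also lower in spheroids at 96 h (log2 -1.38) and higher at 48 h (1.04), at low counts. It had 16 and 49 counts in spheroids and 35 and 28 counts in monolayers at 96 h and 48 h. Abca9 had 4 counts in spheroids at 96 h and 7 counts in monolayers at 96 h, too few to compare. It had 23 counts in spheroids and 36 in monolayers at 48 h, and was called as falling with time in both. Abca8b and Abca6 instead rose with time in monolayers. Abca8a and Abca8b share 1.89% and 1.42% of their 50-base windows, each counted in its own longest coding transcript. Fibroblast markers moved with these genes in the 96 h comparison, with 6 of 8 called lower in spheroids and 1 higher. That is 75% lower and 12.5% higher, beside 36.7% and 37.5% of all genes. The 8 markers summed to 681 to 738 CPM in spheroids and 1766 to 2424 CPM in monolayers. Among them Pdgfra, a receptor that marks fibroblasts, was lower by a log2 difference of -2.88 at 96 h and rose with time in monolayers (1.54), as did the matrix proteoglycan gene Dcn (-2.08 and 1.52). These were the 2 of 8 fibroblast markers that rose in monolayers, where the other 6 fell (median -1.63). That is 25% risen and 75% fallen, beside 30.4% and 31.3% of all genes. The summed level of the 8 markers was 1992 to 2255 CPM in spheroids at 48 h and 7781 to 8554 CPM in monolayers at 48 h. In monolayers at 48 h Col1a1 and Col1a2 averaged 4025 and 3060 CPM, most of that sum. Pdgfra averaged 18.5 and 90.7 CPM in spheroids and 137 and 47.2 CPM in monolayers at 96 h and 48 h. Dcn averaged 73.0 and 193 CPM in spheroids and 307 and 107 CPM in monolayers at 96 h and 48 h. At 48 h 2 of 8 fibroblast markers were higher in spheroids and 5 lower. That is 25% and 62.5%, beside 31.9% and 26.5% of all genes. All 8 fell with time in spheroids, as 20.6% of all genes did. The part of fibroblast RNA in these results was not tested.

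The other tested A members were Abca4, Abca7 and Abca12. Abca12, which loads lipid into the granules of skin cells, was higher in spheroids at 48 h (log2 0.94) and lower at 96 h (-0.57). The retinal transporter Abca4, at low level, was higher at 48 h (2.11), and at 96 h its log2 difference was -0.20 (adjusted p = 0.613). Abca7, a phospholipid transporter, was higher at 48 h (0.53), with a difference of 0.25 at 96 h (adjusted p = 0.0580).

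The 2 tested members of subfamily G differed from each other. Abcg1, which passes cholesterol to high-density lipoprotein, had 19.9, 20.6 and 19.9 CPM in spheroids at 96 h and 13.3, 14.9 and 17.1 CPM in spheroids at 48 h. Its monolayer libraries had 32.7, 35 and 44.5 CPM at 96 h and 19.3, 17.7 and 19.0 CPM at 48 h. Like Abca1 it was highest in monolayers at 96 h, where spheroids were 1.86-fold lower (log2 -0.90 ± 0.11, adjusted p = 3.64e-07). The rise with time was 2.01-fold in monolayers and 1.33-fold in spheroids, and the spheroid rise missed the threshold without spheroid 48 h replicate 1 (log2 0.33, adjusted p = 0.0686).

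At 48 h Abcg1 was lower in spheroids by a log2 difference of -0.31 ± 0.13 (adjusted p = 0.0404). That call ended without spheroid 48 h replicate 1 (-0.22, adjusted p = 0.187) or 2 (-0.30, adjusted p = 0.0869), and without monolayer 48 h replicate 1 (-0.29, adjusted p = 0.0867) or 3 (-0.30, adjusted p = 0.0667).

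Abcg2, the milk drug and riboflavin transporter, had 37.4, 39.6 and 35.9 CPM in spheroids at 96 h and 37.7, 41.0 and 38.6 CPM in spheroids at 48 h. It had 26.6, 28.9 and 28.5 CPM in monolayers at 96 h and 40.9, 42.0 and 45.7 CPM in monolayers at 48 h. The 96 h monolayers were the low group, 1.53-fold below monolayers at 48 h (log2 -0.62 ± 0.076, adjusted p = 1.07e-06). Spheroids at 96 h were 1.35-fold higher than those monolayers (log2 0.43 ± 0.076, adjusted p = 4.56e-05). At 48 h the difference was -0.13 with an interval of -0.28 to 0.01 (called under RLE scaling, -0.17, adjusted p = 0.0485), and in spheroids the change with time was -0.05 with an interval of -0.20 to 0.09.

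Partners of the lipid exporters are shown with the LXR receptors and the other factors that control ABC genes. Of 7 tested partners, 2 were higher and 3 lower in spheroids at 96 h, and 0 higher and 2 lower at 48 h. That is 28.6% and 42.9% at 96 h, beside 37.5% and 36.7% of all genes. At 48 h it is 0% and 28.6%, beside 31.9% and 26.5%. Npc1, which moves cholesterol out of late endosomes, had 71.9 ± 2.0 CPM in spheroids at 96 h, 89.4 ± 2.6 CPM in spheroids at 48 h, 234 ± 22 CPM in monolayers at 96 h and 86.6 ± 11 CPM in monolayers at 48 h (SD, n = 3). It was thus highest in the same group as Abca1, lower in spheroids at 96 h (log2 -1.70) and up with time in monolayers (1.43). Mylip, a ubiquitin ligase gene and LXR target, rose in monolayers with time (1.29).

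Srebf2, the activator of cholesterol synthesis genes, had 303 ± 6.2 CPM in spheroids at 96 h, 264 ± 17 CPM in spheroids at 48 h, 132 ± 11 CPM in monolayers at 96 h and 284 ± 17 CPM in monolayers at 48 h (SD, n = 3). It was low where Abca1 was high, with a log2 difference of 1.2 between formats at 96 h and of -1.11 with time in monolayers. Srebf1, which drives fatty acid synthesis and is an LXR target, was instead higher in spheroids at 96 h (1.60) and rose with time in spheroids (1.28). The LXR partner Rxra was higher in spheroids at 48 h (1.30). Over the 13 tested receptors and factors, 6 were higher and 5 lower at 96 h, and 6 higher and 1 lower at 48 h. That is 46.2% and 38.5% at 96 h beside 37.5% and 36.7% of all genes, and 46.2% and 7.69% at 48 h beside 31.9% and 26.5%. Pgr, the progesterone receptor, had log2 differences of 1.49 at 96 h and 3.53 at 48 h, and the oestrogen receptor Esr1 of 1.44 and 2.26. Pparg, a lipid-sensing receptor, was higher at 48 h (2.12). Adipocyte markers summed to 52.0 to 54.0 CPM in spheroids at 96 h, 293 to 326 CPM in spheroids at 48 h, 54.0 to 80.6 CPM in monolayers at 96 h and 31.6 to 37.4 CPM in monolayers at 48 h. The defining markers Lep and Cfd were at 0 in every library of 3 groups, Plin1 was at 0 in both monolayer groups, Adipoq was at 0 in monolayers at 48 h and Cidec was at 0 in monolayers at 96 h. Of the 7 adipocyte markers 3 were tested, and all 3 were higher in spheroids at 48 h (median log2 4.37). That is 100%, beside 31.9% of all genes. All 3 fell with time in spheroids, as 20.6% of all genes did. At 96 h 2 were higher in spheroids and 1 lower (66.7% and 33.3%, beside 37.5% and 36.7% of all genes). The part of adipocyte RNA in the Pparg and subfamily A values was not tested.

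**Figure D3:**
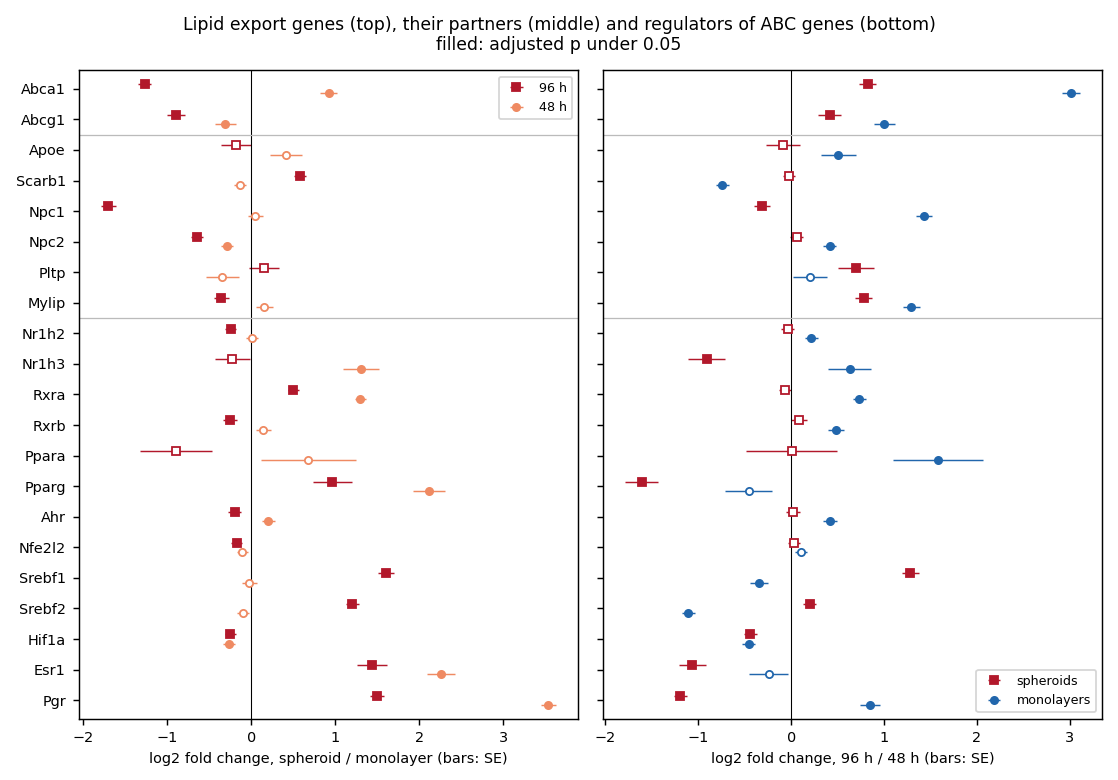
Log2 fold changes with standard errors of Abca1 and Abcg1 (top), tested partners (middle) and the 13 tested receptors and factors (bottom), spheroid over monolayer at 96 h and 48 h on the left and 96 h over 48 h in spheroids and monolayers on the right; filled symbols have an adjusted p under 0.05. In monolayers Abca1 (3.01), Npc1 (1.43) and Mylip (1.29) lie to the right of 0, and Srebf2 (-1.11) to the left.

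In subfamily C all 7 tested members fell in spheroids between 48 h and 96 h, and 4 rose and 1 fell in monolayers, where 20.6% of all genes fell in spheroids and 30.4% rose and 31.3% fell in monolayers. At 48 h, 5 were higher in spheroids and 0 lower (median log2 fold change 0.57). At 96 h, 2 were higher and 5 lower (median -0.77).

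Abcc4, an exporter of cyclic nucleotides, prostaglandins and urate, had 5.73, 4.12 and 4.75 CPM in spheroids at 96 h and 43.7, 36.0 and 38.6 CPM in spheroids at 48 h. Monolayers carried 83.0, 80.3 and 71.6 CPM of Abcc4 at 96 h and 15.9, 15.6 and 13.8 CPM at 48 h. The 4 groups were fully separate, and the order of formats was opposite at the 2 times. Spheroids were 16-fold lower at 96 h (log2 -4.00 ± 0.11, adjusted p = 1.74e-16) and 2.62-fold higher at 48 h (log2 1.39 ± 0.10, adjusted p = 6.39e-10). With time Abcc4 fell 8.09-fold in spheroids (log2 -3.02 ± 0.12, adjusted p = 3.05e-13) and rose 5.19-fold in monolayers (log2 2.38 ± 0.099, adjusted p = 2.15e-13). Its interaction of -5.39 ± 0.16 was the largest in size among the 35 tested members.

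The 250 bases before the start of Abcc4 and of Abca1 are shown because these genes had the same crossing and were well measured. They come from RefSeq on build GRCm38.p6 and are printed 5′ to 3′ on the gene's strand, chr14:118706220-118706469 (minus strand, the first of 2 listed starts) for Abcc4 and chr4:53159896-53160145 (minus strand) for Abca1. Capitals mark matches on both strands to the GC box GGGCGG, the CCAAT box, the TATA box with the letters TATAAA, and the E-box with the letters CACGTG. No match overlaps another in these windows.
Abcc4: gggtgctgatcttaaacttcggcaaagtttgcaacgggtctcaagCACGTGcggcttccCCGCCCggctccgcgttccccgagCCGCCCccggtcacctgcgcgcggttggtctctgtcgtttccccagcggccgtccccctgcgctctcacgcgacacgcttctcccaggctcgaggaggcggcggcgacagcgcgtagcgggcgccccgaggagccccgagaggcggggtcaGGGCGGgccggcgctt
Abca1: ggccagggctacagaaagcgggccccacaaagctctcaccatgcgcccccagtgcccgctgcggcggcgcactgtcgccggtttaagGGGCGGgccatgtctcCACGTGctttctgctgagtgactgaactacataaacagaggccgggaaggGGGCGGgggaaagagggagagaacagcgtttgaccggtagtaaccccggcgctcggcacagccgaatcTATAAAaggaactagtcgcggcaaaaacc
The Abcc4 window holds 3 GGGCGG and 1 CACGTG, and the Abca1 window holds 2 GGGCGG, 1 TATAAA and 1 CACGTG. Of 32851 promoter windows of this length, 32.7% hold GGGCGG, 33.8% CCAAT, 12.4% TATAAA and 6.0% CACGTG. RefSeq promoters were matched for 38 of the 50 members.

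Abcc1, the exporter of leukotriene C4 and glutathione conjugates, had 105, 108 and 100 CPM in spheroids at 96 h and 195, 207 and 198 CPM in spheroids at 48 h. It had 175, 179 and 182 CPM in monolayers at 96 h and 145, 142 and 116 CPM in monolayers at 48 h. Spheroids at 96 h were the lowest group and spheroids at 48 h the highest. The difference between formats was -0.77 ± 0.075 at 96 h (adjusted p = 1.54e-08) and 0.57 ± 0.074 at 48 h (adjusted p = 1.59e-06) on the log2 scale.

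Abcc3 kept 1 direction at both times. It had 42.6, 42.4 and 39.1 CPM in spheroids at 96 h and 105, 112 and 105 CPM in spheroids at 48 h, against 14.9, 13.3 and 12.7 CPM in monolayers at 96 h and 12.5, 10.9 and 11.4 CPM in monolayers at 48 h. Every spheroid library exceeded every monolayer library, 3.03-fold at 96 h (log2 1.60 ± 0.085, adjusted p = 1.76e-12) and 9.30-fold at 48 h (log2 3.22 ± 0.083, adjusted p = 6.42e-17). In spheroids Abcc3 fell 2.60-fold with time (log2 -1.38 ± 0.070, adjusted p = 6.60e-12). In monolayers its log2 change was 0.24 ± 0.10 (adjusted p = 0.0443). That small call was lost when any of 7 libraries was left out, with log2 values of 0.16 without monolayer 96 h replicate 1, 0.26 without replicate 2, 0.20 and 0.23 without monolayer 48 h replicates 2 and 3, and 0.24 without spheroid 48 h replicate 3 or spheroid 96 h replicate 1 or 2.

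Abcc5, another exporter of cyclic nucleotides, had 10.0, 8.89 and 6.61 CPM in spheroids at 96 h and 29.8, 24.7 and 26.4 CPM in spheroids at 48 h. Monolayer values of Abcc5 were 28.1, 31.8 and 30.1 CPM at 96 h and 37.1, 27.1 and 24.6 CPM at 48 h. The late spheroids stood apart from the other groups, which overlapped. They were 3.52-fold below monolayers at 96 h (log2 -1.82 ± 0.15, adjusted p = 2.18e-09) and 3.18-fold below spheroids at 48 h. At 48 h the difference between formats was -0.13 with an interval of -0.39 to 0.14.

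Abcc8 and Abcc9 encode the sulfonylurea receptors of potassium channels and Abcc10 a multidrug resistance protein. The channel pores that pair with the receptors, Kcnj8 and Kcnj11, had too few reads to be tested. Abcc8, singled out after its values were seen, had 36 counts in spheroids at 96 h, 67 in spheroids at 48 h, 2 in monolayers at 96 h and 25 in monolayers at 48 h. The ratio of spheroids to monolayers at 96 h was 14.8, with a 95% counting interval of 3.81 to 127 that covers counting error only, and monolayers at 96 h over 48 h gave 0.0840 (0.00965 to 0.337). Abcc9 was lower in spheroids at 96 h (log2 -1.60), with a difference of 0.35 at 48 h (adjusted p = 0.311). Abcc10 was lower at 96 h (-0.64) and higher at 48 h (0.53).

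**Figure D4:**
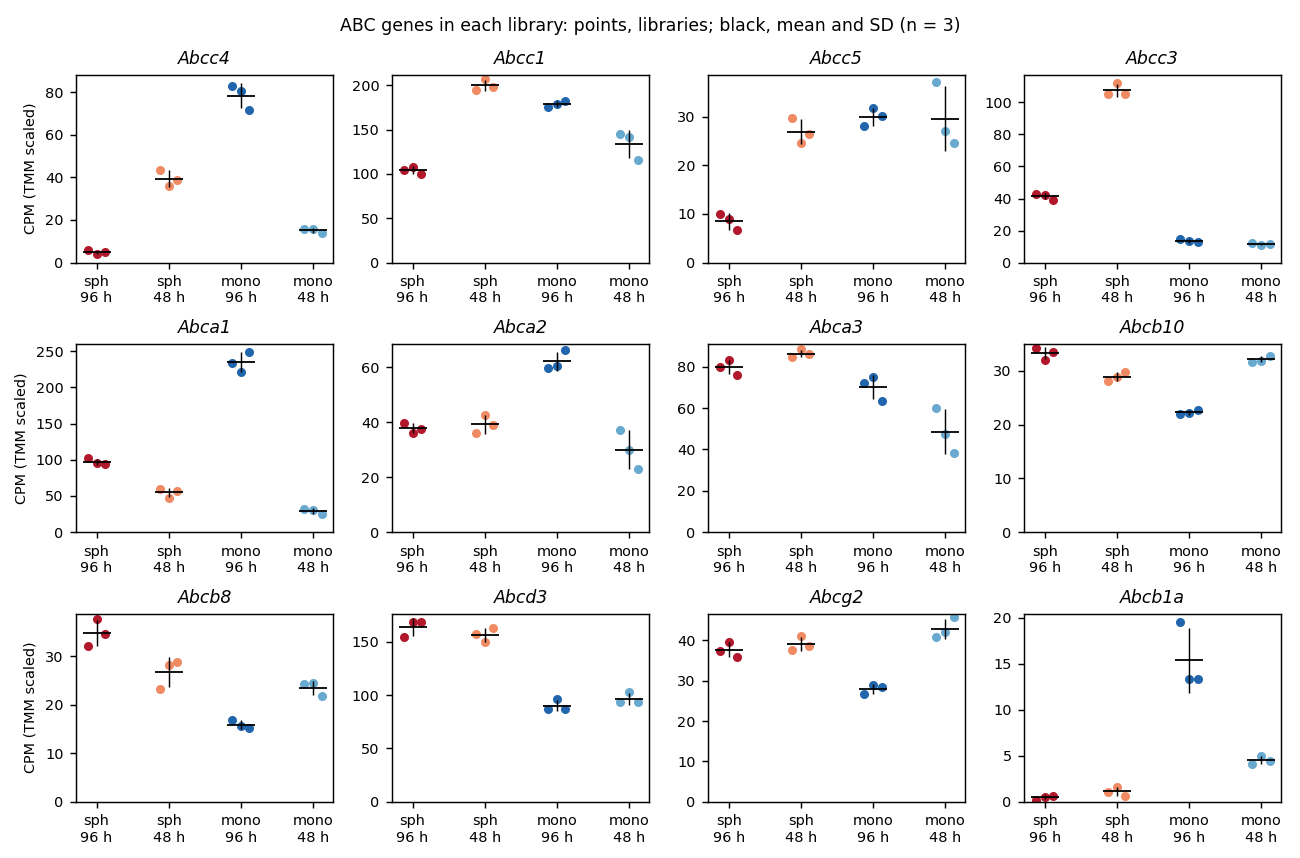
CPM of 12 ABC genes in each library, with spheroids at 96 h and 48 h left of monolayers at 96 h and 48 h in each panel; points are libraries and black marks the mean and SD (n = 3). Abcc4 and Abca1 are highest in monolayers at 96 h (71.6 to 83.0 and 221 to 248 CPM), and Abcc3 in spheroids at 48 h (105 to 112 CPM).

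Subfamily B members of mitochondria and of the plasma membrane moved in opposite directions at 96 h. Of 7 tested members, 4 were higher and 2 lower in spheroids at 96 h, and 4 higher and 1 lower at 48 h. The mitochondrial members Abcb6, Abcb8 and Abcb10 were among the higher at 96 h, and the P-glycoprotein genes Abcb1a and Abcb1b were the 2 lower.

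Abcb8, of the mitochondrial inner membrane, had 32.2, 37.7 and 34.6 CPM in spheroids at 96 h and 23.3, 28.1 and 28.9 CPM in spheroids at 48 h. Its monolayer levels were 16.9, 15.6 and 15.2 CPM at 96 h and 24.3, 24.4 and 21.8 CPM at 48 h. The groups were separate at 96 h, by 2.18-fold (log2 1.12 ± 0.099, adjusted p = 4.15e-09), and overlapped at 48 h (0.18 ± 0.099, adjusted p = 0.124). The 48 h difference was called without spheroid 48 h replicate 1 (0.28, adjusted p = 0.0246) and under total count scaling (0.29, adjusted p = 0.0188).

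Abcb10, which serves haem synthesis in red-cell precursors, had 34.2, 32.1 and 33.5 CPM in spheroids at 96 h and 28.1, 28.8 and 29.8 CPM in spheroids at 48 h. Monolayers gave 22.0, 22.1 and 22.8 CPM at 96 h and 31.7, 31.9 and 32.8 CPM at 48 h. It was 1.49-fold higher in spheroids at 96 h (log2 0.58 ± 0.074, adjusted p = 8.06e-07), and at 48 h the difference was -0.15 ± 0.074 (adjusted p = 0.0796), called under RLE scaling (-0.20, adjusted p = 0.0277). Abcb8 and Abcb10 were the 2 members that rose with time in spheroids and fell in monolayers (5.71%, beside 7.01% of all genes). The spheroid rise of Abcb10 was small (log2 0.21 ± 0.073, adjusted p = 0.0299). It missed the threshold without spheroid 96 h replicate 1 or 3 (0.18 and 0.20) and without spheroid 48 h replicate 1 or 2 (0.18 and 0.20).

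Abcb6, a porphyrin transporter, had 18.1, 16.4 and 18.6 CPM in spheroids at 96 h and 20.4, 20.3 and 20.1 CPM in spheroids at 48 h. Monolayers stood lower, with 11.4, 8.76 and 9.69 CPM at 96 h and 7.74, 7.70 and 6.17 CPM at 48 h. No spheroid library overlapped a monolayer library, and the fold was 1.76 at 96 h (log2 0.81 ± 0.12, adjusted p = 3.16e-06) and 2.81 at 48 h (log2 1.49 ± 0.12, adjusted p = 2.57e-09).

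Of 9 partners in mitochondrial iron-sulfur and haem synthesis, 3 were higher and 2 lower in spheroids at 96 h (median 0.13), and 6 higher and 2 lower at 48 h (0.34). The shares were 33.3% and 22.2% at 96 h, beside 37.5% and 36.7% of all genes, and 66.7% and 22.2% at 48 h, beside 31.9% and 26.5%. Glrx5, a glutaredoxin of iron-sulfur assembly, was higher at 96 h (log2 1.00), and the mitochondrial iron importer Slc25a37 was lower (-1.08). Alas1, the first enzyme of haem synthesis, fell in spheroids with time (-1.16).

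Abcb1a and Abcb1b are the mouse genes for P-glycoprotein and lie next to each other on chromosome 5. Both were singled out after their values were seen. Abcb1a had 0.229, 0.494 and 0.668 CPM in spheroids at 96 h and 1.04, 1.62 and 0.667 CPM in spheroids at 48 h, against 19.5, 13.4 and 13.3 CPM in monolayers at 96 h and 4.12, 4.97 and 4.47 CPM in monolayers at 48 h. Every spheroid library was below every monolayer library, 32.6-fold at 96 h (log2 -5.03 ± 0.28, adjusted p = 3.49e-12) and 4.09-fold at 48 h (log2 -2.03 ± 0.31, adjusted p = 1.13e-05). In monolayers it rose 3.42-fold with time. In spheroids the fall of -1.22 (adjusted p = 0.0444) rested on 18 and 31 counts at 96 h and 48 h. It was not called without spheroid 96 h replicate 1 (-0.90) or 2 (-1.26), or without spheroid 48 h replicate 1 (-1.27) or 2 (-0.88).

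Abcb1b had 5.81, 7.24 and 5.64 CPM in spheroids at 96 h and 12.8, 9.84 and 11.7 CPM in spheroids at 48 h, against 13.5, 13.6 and 9.87 CPM in monolayers at 96 h and 8.33, 6.54 and 7.51 CPM in monolayers at 48 h. Its order between formats changed with time, with Abcb1b 1.98-fold lower in spheroids at 96 h (log2 -0.98 ± 0.16, adjusted p = 1.32e-05) and 1.54-fold higher at 48 h (log2 0.63 ± 0.16, adjusted p = 0.00224). Abcb1a shares 15.5% of its 50-base transcript windows with Abcb1b, and Abcb1b shares 18.0% with Abcb1a. How the estimated counts were divided between them is therefore uncertain.

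Endothelial markers, of a cell type in which Abcb1a is well known, moved the same way in the 96 h comparison. Their sum over 8 genes was 27.7 to 34.5 CPM in spheroids at 96 h, 59.6 to 68.8 CPM in spheroids at 48 h, 73.6 to 78.2 CPM in monolayers at 96 h and 46.3 to 62.4 CPM in monolayers at 48 h. At 96 h 7 of 8 were lower in spheroids and 1, Vwf, was higher (87.5% and 12.5%, beside 36.7% and 37.5% of all genes). The median log2 difference was -3.01, with 0 of 8 at 0 in any group. The sum without Vwf, taken after its values were seen, was 7.10 to 8.64 CPM in spheroids at 96 h, 31.3 to 40.8 CPM in spheroids at 48 h, 69.7 to 72.4 CPM in monolayers at 96 h and 42.5 to 56.5 CPM in monolayers at 48 h. At 48 h, where Abcb1a was lower too, 2 of the 8 markers were higher and 3 lower (25% and 37.5%, beside 31.9% and 26.5% of all genes). The part of endothelial RNA in the Abcb1a values was not tested.

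The windows before the starts of these neighbours are shown because their transcripts share sequence while their differences between formats at 48 h had opposite signs. They lie at chr5:8566841-8567090 (plus strand) for Abcb1a and chr5:8797897-8798146 (plus strand) for Abcb1b, in RefSeq on GRCm38.p6, with the same motifs in capitals.
Abcb1a: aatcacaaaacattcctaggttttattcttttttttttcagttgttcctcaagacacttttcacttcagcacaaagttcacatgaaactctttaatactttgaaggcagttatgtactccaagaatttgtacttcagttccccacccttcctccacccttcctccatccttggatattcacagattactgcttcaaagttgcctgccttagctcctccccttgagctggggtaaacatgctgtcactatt
Abcb1b: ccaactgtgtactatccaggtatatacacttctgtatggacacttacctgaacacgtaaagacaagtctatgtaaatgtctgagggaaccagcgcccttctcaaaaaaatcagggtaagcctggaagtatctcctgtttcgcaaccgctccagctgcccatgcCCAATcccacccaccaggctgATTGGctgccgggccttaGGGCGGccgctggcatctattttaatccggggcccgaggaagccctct
The Abcb1a window holds 0 matches to the 4 motifs, and the Abcb1b window holds 1 GGGCGG and 2 CCAAT. A match describes the letters only.

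Abcb9, a lysosomal peptide transporter singled out after its values were seen, had 4.43, 5.10 and 4.53 CPM in spheroids at 96 h and 5.77, 4.28 and 3.89 CPM in spheroids at 48 h. Its monolayer libraries held 4.80, 4.5 and 4.49 CPM at 96 h and 0.980, 1.24 and 1.34 CPM at 48 h. Monolayers at 48 h were the only low group, 3.90-fold below spheroids (log2 1.96 ± 0.23, adjusted p = 4.82e-07), and at 96 h the difference was 0.02 with an interval of -0.32 to 0.37. Tap1, part of the peptide transporter of antigen presentation, rose in monolayers with time (1.10). Of the 6 peptide loading genes, 2 were higher and 2 lower in spheroids at 96 h (33.3% each, beside 37.5% and 36.7% of all genes), and 0 higher and 4 lower at 48 h (66.7% lower, beside 26.5%). B2m, the light chain of MHC class I, was lower at 96 h (-1.03), and Tapbpl, a peptide editor, fell in monolayers (-1.04).

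**Figure D5:**
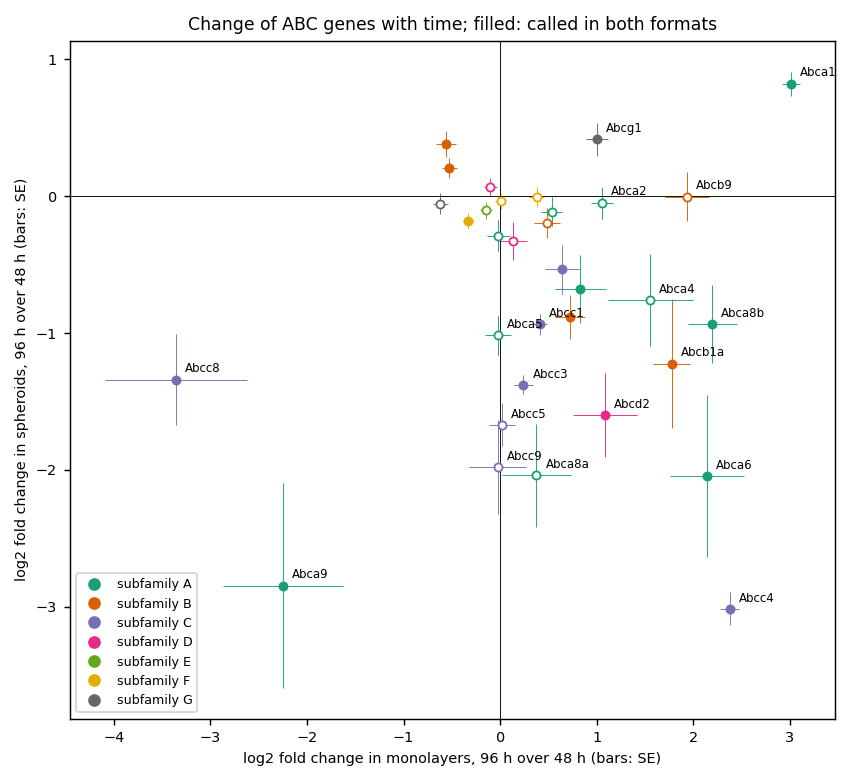
Log2 fold change of tested ABC genes between 48 h and 96 h in spheroids (vertical) against monolayers (horizontal), 96 h over 48 h, with standard errors, coloured by subfamily; filled symbols were called in both. Abcc4 lies at the lower right (-3.02 in spheroids, 2.38 in monolayers) and Abca1 at the upper right (0.82 and 3.01).

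Across subfamilies, 10 members fell with time in spheroids and rose in monolayers (28.6%, beside 6.77% of all genes): Abca6, Abca8b, Abca12, Abcb1a, Abcb1b, Abcc1, Abcc3, Abcc4, Abcc10 and Abcd2. The spheroid fall of Abca8b (-0.93, adjusted p = 0.0131) missed the threshold without spheroid 96 h replicate 2 (-0.72, adjusted p = 0.0655). Abca9, Abcc8 and Abcf2 fell in both (8.57%, beside 6.85% of all genes). These time patterns, the crossing pattern and the interaction all use the same 12 libraries, so their counts are not separate evidence.

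In subfamily D, Abcd3, the abundant fatty acid importer of the peroxisomal membrane, had 154, 169 and 169 CPM in spheroids at 96 h and 157, 150 and 163 CPM in spheroids at 48 h. It had 87.0, 96.2 and 87.5 CPM in monolayers at 96 h and 93.2, 103 and 93.5 CPM in monolayers at 48 h. All spheroid libraries lay above all monolayer libraries, 1.82-fold at 96 h (log2 0.86 ± 0.068, adjusted p = 7.17e-10) and 1.62-fold at 48 h (log2 0.70 ± 0.068, adjusted p = 3.08e-08). The 2 effects differed by 0.17 with an interval of -0.02 to 0.35.

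Abcd4, which takes part in moving cobalamin out of lysosomes, had 8.02, 9.71 and 9.95 CPM in spheroids at 96 h and 11.8, 13.3 and 9.56 CPM in spheroids at 48 h. Monolayers had 12.2, 13.6 and 10.9 CPM of Abcd4 at 96 h and 12.2, 10.5 and 10.6 CPM at 48 h. The 96 h comparison was called (log2 -0.40 ± 0.14, adjusted p = 0.0128). It missed the threshold without spheroid 96 h replicate 1 (-0.31, adjusted p = 0.0730) or monolayer 96 h replicate 2 (-0.34, adjusted p = 0.0504).

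The very long chain fatty acid transporter Abcd2 was lower in spheroids at 96 h (log2 -1.09) and higher at 48 h (1.59). Of 8 peroxisome partners, 5 were higher and 1 lower at 96 h (median 0.49), and 4 higher and 2 lower at 48 h (0.18). The shares were 62.5% and 12.5% at 96 h, beside 37.5% and 36.7% of all genes. At 48 h they were 50% and 25.0%, beside 31.9% and 26.5%. Ehhadh, an enzyme of peroxisomal fatty acid oxidation, was higher at 48 h (1.02).

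The ribosome-associated E and F genes had log2 differences between formats of -0.03 to 0.61. Abce1 had 272, 265 and 276 CPM in spheroids at 96 h and 304, 275 and 295 CPM in spheroids at 48 h, against 194, 200 and 199 CPM in monolayers at 96 h and 219, 225 and 211 CPM in monolayers at 48 h. Spheroids were above monolayers in every library, 1.37-fold at 96 h (log2 0.46 ± 0.061, adjusted p = 1.47e-06) and 1.33-fold at 48 h (log2 0.42 ± 0.061, adjusted p = 7.85e-06). Its fall in monolayers with time (log2 -0.14 ± 0.061, adjusted p = 0.0493) sat at the threshold, and its direction turned to 0.03 under total count scaling. It was also not called after leaving out any of 9 single libraries, with log2 values between -0.15 and -0.12: monolayer 96 h replicates 1, 2 and 3, monolayer 48 h replicates 1 and 2, spheroid 96 h replicates 1, 2 and 3, and spheroid 48 h replicate 3.

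Abcf1, which aids translation initiation, had 176, 177 and 180 CPM in spheroids at 96 h and 182, 188 and 177 CPM in spheroids at 48 h, against 120, 122 and 119 CPM in monolayers at 96 h and 120, 120 and 119 CPM in monolayers at 48 h. Within each format the 2 times overlapped, and between formats there was no overlap. The fold was 1.47 at 96 h (log2 0.56 ± 0.056, adjusted p = 2.92e-08) and 1.52 at 48 h (log2 0.61 ± 0.057, adjusted p = 1.77e-08). The 2 effects differed by -0.05 with an interval of -0.20 to 0.11. Under total count scaling, where the median of all genes was -0.206, that difference was -0.23 and called (adjusted p = 0.0182), and it was -0.23 on both log2 FPKM scales (adjusted p = 0.00869 and 0.00883).

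Abcf2 had 103, 104 and 99.9 CPM in spheroids at 96 h and 112, 120 and 116 CPM in spheroids at 48 h, against 75.3, 76.7 and 71.5 CPM in monolayers at 96 h and 93.0, 93.9 and 93.6 CPM in monolayers at 48 h. The 4 groups were separate, with spheroids higher at 96 h (log2 0.46 ± 0.059, adjusted p = 8.60e-07) and at 48 h (0.31 ± 0.059, adjusted p = 0.000142). Its fall with time was -0.33 ± 0.060 in monolayers and -0.18 ± 0.058 in spheroids. The spheroid fall was not called without spheroid 96 h replicate 3 (-0.16, adjusted p = 0.0773) or spheroid 48 h replicate 2 (-0.15, adjusted p = 0.0679).

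Abcf3 had 43.5, 43.0 and 45.3 CPM in spheroids at 96 h and 47.6, 42.5 and 41.9 CPM in spheroids at 48 h, against 47.9, 42.7 and 43.7 CPM in monolayers at 96 h and 33.9, 36.4 and 33.3 CPM in monolayers at 48 h. Monolayers at 48 h were the low group (log2 0.35 ± 0.077 for spheroids over monolayers at 48 h, adjusted p = 0.000581), and at 96 h the formats overlapped (-0.03 ± 0.073, adjusted p = 0.724). Of 7 ribosome recycling and initiation partners, 4 were higher and 1 lower in spheroids at 96 h (median 0.49), and 1 higher and 1 lower at 48 h (0.03). The shares were 57.1% and 14.3% at 96 h, beside 37.5% and 36.7% of all genes, and 14.3% each at 48 h, beside 31.9% and 26.5%.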

How the data were processed

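The authors deposited estimated counts per gene (expected counts, whole numbers in the file) and log2 values of FPKM + 1 for all 12 libraries, with an annotation table that pairs rows with symbols. Per the submitters' processing notes, bcl2fastq 2.15.0, Bowtie 1.0.1 and RSEM 1.2.30 were used with build mm9. No source used here states how strand was handled, so overlapping and antisense genes may share reads. RSEM divides reads that match several genes, which bears on near-identical members.

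The deposited expected counts were rounded, and 1 row was kept per symbol entry (the row with the largest mean count, 677 rows dropped). Genes passed edgeR's filterByExpr (minimum count 10, minimum total 15), which left 13842. The 4 groups were fitted together with edgeR 4.0.16 in R 4.3.3 (TMM factors 0.923 to 1.07, quasi-likelihood test, 2-sided, Benjamini-Hochberg adjustment over all genes tested, threshold 0.05), and the code was tested on simulated data. The standard error is the log2 fold change divided by the root of F. Intervals of log2 differences are 95% intervals from that standard error and the normal distribution, which are narrower than the test itself would give. FPKM was computed back from the deposited log2 values. Outside the alternatives it was used only for levels between genes and for the sums of subfamilies. Depth is the count total per library, which sets the precision of low genes.

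Named with values in every library were members with a mean CPM of at least 10 that were among the 3 highest of their subfamily by mean FPKM or among the 4 largest called changes in either direction of any comparison with groups that do not overlap. Another 6 members were named after their values were seen. Genes of the partner and receptor lists were named where called with an absolute log2 fold change of at least 1 and a mean CPM of at least 5. A few members and list genes are not reported here. The members and lists were chosen with earlier results of these data known. Of the members, 4 have rows with several symbols. Promoter windows come from RefSeq (GRCm38.p6), and shared 50-base windows from the longest GENCODE M21 coding transcripts. Alternatives covered the scaling, the filter, limma 3.58.1 on the log2 FPKM values, DESeq2 1.42.0, the replicate number as a block, the groups of each comparison alone, rows with several symbols, repeated rows, and leaving out each library.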

Additional observations from a re-analysis of the deposited data

Results flagged for a closer look

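For 19 named ABC genes the difference between spheroids and monolayers was not the same at 96 h as at 48 h, by the interaction term of edgeR's quasi-likelihood fit (adjusted p under 0.05). Over the 35 tested members it was positive for 4 and negative for 22. That is 11.4% and 62.9%, beside 27.0% and 26.6% of all genes. Members were named partly for large called changes, this interaction included, or after their values were seen. The count of 19 is therefore partly set by that choice. Values subtract the log2 fold change of spheroids over monolayers at 48 h from the one at 96 h. In subfamily A the value was -4.19 for Abca6, -3.13 for Abca8b, -2.19 for Abca1, -1.10 for Abca2, -0.99 for Abca5 and -0.65 for Abca3. In subfamily C it was -5.39 for Abcc4, -1.69 for Abcc5, -1.62 for Abcc3 and -1.35 for Abcc1. In subfamily B it was -3.00 for Abcb1a, -1.94 for Abcb9, -1.61 for Abcb1b and -0.68 for Abcb6, and it was positive for the mitochondrial Abcb8 (0.94) and Abcb10 (0.73). Abcf3 had -0.38 and Abcg1 -0.59, while Abcg2 had 0.56.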

How the results depend on the processing

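Each count of called ABC genes stayed within 1.5 times its value under all 23 alternatives that gave it. Over the 12 fits that left out a library, the count ran between 27 and 30 for spheroids over monolayers at 96 h, 22 and 25 at 48 h, 22 and 25 with time in monolayers, 18 and 23 with time in spheroids, and 26 and 28 for the interaction. With the replicate block these counts were 29, 25, 24, 22 and 26. Libraries with the same replicate number did not deviate together (r between -0.055 and 0.090, beside -0.113 and 0.109 for other numbers, and 3 of 12 libraries correlated best with their own number), and the block was not used otherwise. Of 130 results of named genes, 107 kept their call throughout. Abce1 in monolayers over time was -0.14 and reversed to 0.027 under total count scaling, 0.033 on log2(FPKM + 1) values and 0.034 on log2(FPKM + 0.1) values. The median of all genes in these fits was 0.183, 0.13 and 0.175, beside 0.01 under TMM. On the log2 FPKM scales a pseudocount understates low genes, which Abce1 is not. Keeping repeated rows, an alternative chosen after seeing the data, gave 27 called at 96 h, 16 of them lower. Abcb8 in spheroids over time was not called on either log2 FPKM scale (0.25 and 0.27). Limma on log2(FPKM + 1) values called 16 with time in spheroids, 3 risen and 13 fallen. Depth limits the low members: Abcc8, Abca9, Abca8a, Abca6 and Abcb1a in spheroids rest on few counts per group. The cause of each lost call was not tested.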
